A study of Mus musculus with 42 samples.

Results

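The cytosolic ribosomal protein genes were followed across microglia, the resident macrophages of the brain, isolated from mice that differed in gut microbiota, brain region and amyloid genotype. The members were every gene symbol that begins with Rpl, Rps, Rplp or Rpsp, followed by a number and optional lower-case letters, together with Rpsa and Fau. The rule found 87 members among 53546 genes in the cortex and hippocampus table, and 85 of these among 24421 genes in the whole-brain tables. Among the 87, Rpl32l and Rpl6l are annotated as processed pseudogenes and Rpl37rt and Rps4l, which were tested, as transcribed processed pseudogenes. Enough reads for a test were found for 83 members in cortex and hippocampus (49 of the large and 34 of the small subunit) and for 72 in whole brain (42 and 30). The rule left out, among others, Rps3a1, Rack1 and the paralogues Rpl22l1 and Rpl7l1, which are summarised as a list of their own below.

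All 42 libraries are bulk RNA-seq of CD11b+ CD45lo cells sorted by flow cytometry after a density gradient, from C57BL/6 mice. SPF mice were specific-pathogen-free with a gut microbiota, GF mice were germ-free, and GFA mice were germ-free and received acetate, a short-chain fatty acid made by gut bacteria, in their drinking water. The 5xFAD mice carry human transgenes with familial Alzheimer mutations under the neuronal Thy1 promoter. Whole-brain microglia came from wild-type mice aged 6 to 12 weeks, 3 SPF and 5 GF. Cortical microglia came from wild-type mice aged 16 weeks, 4 SPF, 4 GF and 4 GFA. Hippocampal microglia came from mice aged 16 weeks, of which the wild-type mice numbered 4 SPF, 3 GF and 4 GFA and the 5xFAD mice 4 SPF, 3 GF and 4 GFA. The labels give 8 weeks of acetate for germ-free wild-type and 5xFAD mice and 4 weeks for a further germ-free group that the library labels do not place. Both cortex and hippocampus were sequenced for what are taken here as 11 wild-type mice. The GF and GFA libraries of these pairs carry the animal's number, whereas the SPF pairs share only the labels SPF1 to SPF4.

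The ribosome has a large and a small subunit, each an RNA core covered with ribosomal proteins that are mostly needed in equal numbers. Most ribosomal protein mRNAs begin with an oligopyrimidine stretch (the TOP motif), through which the growth kinase mTORC1 controls their translation together with that of several elongation factors. Microglia adjust protein synthesis when they leave their resting state, and ribosomal protein transcripts are among the shortest and most abundant mRNAs of most cells.

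The windows around the start sites of some members that later results turn on are shown to let the pyrimidine runs be read directly. Each window holds 30 bases before and 20 bases after the RefSeq start (GRCm38.p6), written 5′ to 3′ on the gene's strand, with its longest run of C and T in capitals. Rpl4 lies at chr9:64173357-64173406, Rpl14 at chr9:120571487-120571536, Rpl19 at chr11:98026894-98026943, Rpl13 at chr8:123102320-123102369, Rpsa at chr9:120127736-120127785 and Rps23 at chr13:90923092-90923141, all on the plus strand.
Rpl4: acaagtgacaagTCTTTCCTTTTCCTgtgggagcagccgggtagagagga
Rpl14: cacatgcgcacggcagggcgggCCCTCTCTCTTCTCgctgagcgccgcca
Rpl19: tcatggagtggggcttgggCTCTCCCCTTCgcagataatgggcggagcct
Rpl13: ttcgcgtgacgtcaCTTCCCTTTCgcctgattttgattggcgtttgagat
Rpsa: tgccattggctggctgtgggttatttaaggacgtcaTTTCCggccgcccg
Rps23: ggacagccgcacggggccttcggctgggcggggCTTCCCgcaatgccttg

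The longest run was 14 bases in Rpl4 and in Rpl14, 11 in Rpl19 and 10 in Rpl13, but 5 in Rpsa and 6 in Rps23. Relative to the RefSeq start, these runs began at −18 in Rpl4, −8 in Rpl14, −11 in Rpl19, −16 in Rpl13, 7 in Rpsa and 4 in Rps23. Those of Rpl4, Rpl19 and Rpl13 thus lay wholly before the annotated start. A long run in a window is therefore not by itself a TOP motif. RefSeq gives Rpl19 a further start site, not shown, whose window has a longest run of 5. Over the 65 members with a window, the median longest run was 8 bases, against 5 over all 27025 genes with one, and a run of at least 8 was present in 33 members (50.8%) against 22.9% of all genes. The sense strand of the same window held CTTTC in 32.3% of members and 8.0% of all genes, whereas the antisense strand held it in 6.2% and 7.0%. CTTTT was found on the sense strand in 12.3% of members and 6.6% of all genes. The TATA box sequence TATAAA was found on the sense strand in 1.5% and 2.3%. Over the longer window from 250 bases before to 50 bases after the start, the ETS-type sequence CCGGAAG stood on the sense strand in 24.6% of members and 5.4% of all genes. Such a match describes the letters of a window and is neither a site in use nor a cause of any level below.

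Ribosomal protein genes took a small part of every library. Levels are given in CPM, the count of a gene per 1000000 counts of its library. Their summed share of all counts was 0.192% ± 0.0131 (SD, n = 3) in whole-brain SPF microglia and 0.163% ± 0.0193 (n = 5) in whole-brain GF microglia. In cortex it was 0.417% ± 0.0880 in SPF, 0.444% ± 0.0723 in GF and 0.371% ± 0.0442 in GFA mice (n = 4 each). In wild-type hippocampus it was 0.513% ± 0.0605 (n = 4), 0.539% ± 0.0666 (n = 3) and 0.490% ± 0.0905 (n = 4) in the same order. The 5xFAD hippocampus had the highest means, 0.613% ± 0.131 in SPF (n = 4), 0.615% ± 0.0516 in GF (n = 3) and 0.695% ± 0.0785 in GFA mice (n = 4). Within whole brain, cortex and each hippocampal genotype the microbiota groups overlapped in this share. The ranges in GFA hippocampus, 0.4035% to 0.5783% in wild type and 0.6061% to 0.7969% in 5xFAD, did not overlap. In bulk libraries, fewer cells that express a gene and less RNA per cell cannot be told apart.

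**Figure D1:**
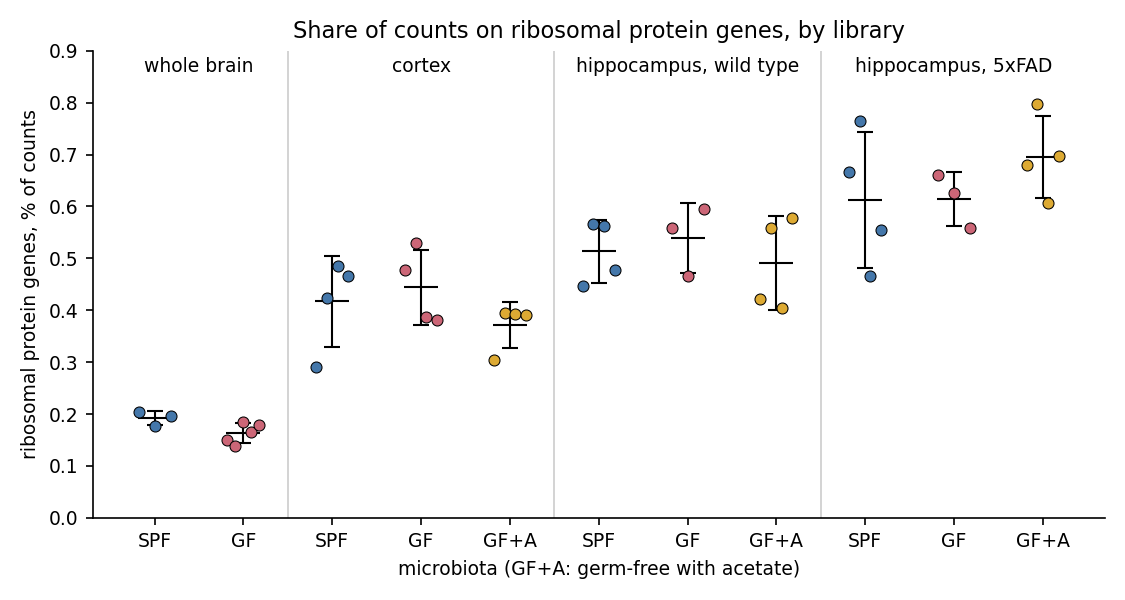
Share of each library's counts on ribosomal protein genes, in percent, by tissue, genotype and microbiota. Points are libraries, the long bar is the group mean and the whiskers are 1 SD; whole-brain libraries lie lowest, and the 4 5xFAD GFA hippocampus libraries lie above the 4 wild-type GFA libraries.

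Among the most abundant members per kilobase of transcript in the cortex and hippocampus table were Rps29 (287 CPM per kb), Rps27 (253), Rps9 (239) and Rpl32 (214). In whole brain they included Rps9 (176 CPM per kb), Rpl4 (135), Rpl8 (128) and Rps14 (126), so that Rps9, a small-subunit protein, ranked high in both tables. Rps29 and Rps27, both short zinc-finger proteins of the small subunit, averaged 112 and 87.4 CPM in cortex and hippocampus but 0.585 and 0.466 CPM in whole brain. Of 78 members with at least 10 CPM in cortex and hippocampus, 21 were under 1 CPM in whole brain and 5 were at least as high there.

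Many ribosomal protein genes have near-identical processed copies elsewhere in the genome, and members whose sequence is shared had lower whole-brain levels. For each member the share of its 50-base stretches that also occur, on either strand, in the GENCODE M21 transcripts of other genes was counted. A single coding transcript per member was used for this share and for the length in CPM per kb, and both depend on that choice. The 5 members with under 10% shared had a whole-brain level that was at the median 110.5% of their cortex and hippocampus level. Among these 5, Rps15a and Rps20 had long transcripts (5130 and 3706 bases, with 6.1% and 7.6% shared). Their whole-brain levels were only 42.08% and 42.8%. The corresponding median was 32.01% for the 26 members from 10% to under 50%, 5.72% for the 42 members from 50% to under 90%, and 0.811% for the 6 members with 90% or more. Across the 79 members with both levels and a transcript, Spearman's rho of the shared percentage with CPM per kb was −0.58 in whole brain and −0.053 in cortex and hippocampus. These coefficients are across genes, which share libraries and are not replicates.

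Single members showed the same order. Rps3, at the mRNA entry of the small subunit, with 3.0% of its stretches shared, had 211 CPM in whole brain and 169 CPM in cortex and hippocampus. Rpl4, which lines the peptide exit tunnel, with 16.5% shared, had 208 and 233 CPM. Levels were far lower in whole brain for members with many shared stretches. Rpl3, near the peptidyl transferase centre, with 85.6% shared, had 10.2 CPM in whole brain and 171 CPM in cortex and hippocampus. Rpl10, which joins the large subunit late, with 92.1% shared, had 1.11 and 111 CPM, and Rpl26, at the exit tunnel, with 71.3% shared, had 0.0170 and 49.0 CPM, which in whole brain were 3 counts over all 8 libraries. Some members departed from this order. Rps29 had 35.8% of its stretches shared and still fell among the lowest in whole brain, Rpl28 had 47.4% shared and 0.115 against 28.2 CPM, and Rpl13a had 57.4% shared but 51.8 CPM in whole brain against 12.9 CPM. The 2 tables also differ in age, sex, tissue and gene rows (ribosomal protein pseudogenes had 321 rows in the cortex and hippocampus table and 7 in the whole-brain tables), so what separates their levels cannot be told apart and no test was made between them.

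**Figure D2:**
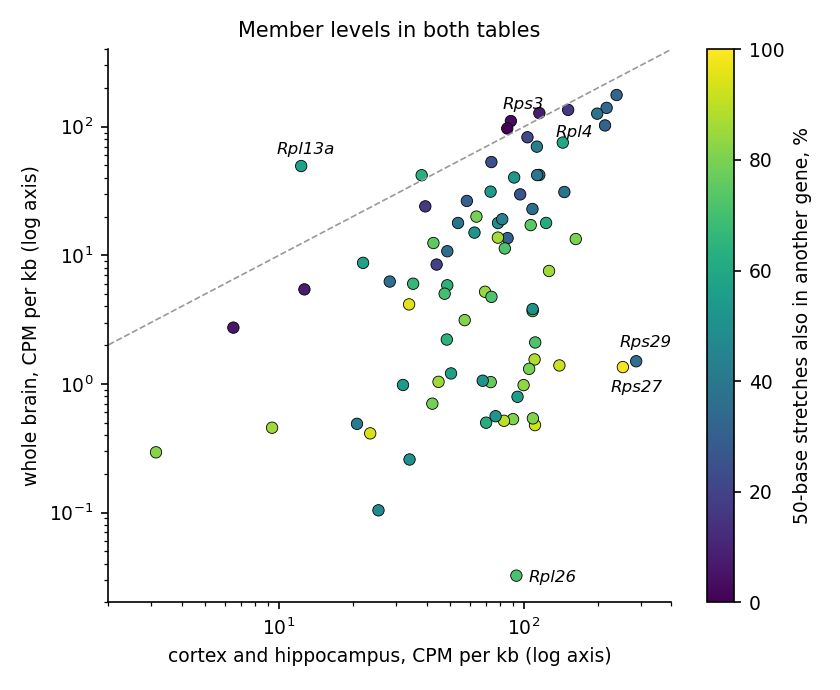
Mean level of each ribosomal protein gene in the whole-brain libraries against its mean level in the cortex and hippocampus libraries, both in CPM per kb on log axes; each point is a gene, its colour is the percentage of 50-base stretches also in another gene, and the dashed line marks equal levels. Rps3 and Rpl4 lie near the line, while Rps27 and Rpl26 lie far below it.

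The first comparison asks whether the lack of a microbiota changes whole-brain microglia. None of 72 members passed the threshold (adjusted p under 0.05, edgeR quasi-likelihood test) between GF and SPF, where 1.99% of all 11332 genes did; 8 members had an unadjusted p under 0.05, and DESeq2 called 3, all lower in GF (5.63% of all genes). The median difference of the members was −0.20 (log2, GF minus SPF) against 0.00 for all genes, with 16 members above 0 and 56 below. Here and below, counts of members at an unadjusted p under 0.05 or on either side of 0 come without the share of all genes. Members varied together between libraries, so these counts are not separate observations and carry no test. Rpl4 had 242, 219 and 229 CPM in the SPF libraries and 200, 180, 204, 191 and 199 CPM in the GF libraries. Every GF library lay below every SPF library for Rpl4, with a log2 difference of −0.22 (SE 0.06, adjusted p = 0.0933). Rpl32 had 70.6, 57.9 and 63.9 CPM in SPF and 42.2, 38.2, 54.0, 42.5 and 53.6 CPM in GF libraries, again without overlap (log2 −0.46, SE 0.13, adjusted p = 0.0933). Rps9, near the mRNA entry of the small subunit, ranged from 140 to 158 CPM in SPF and from 110 to 139 CPM in GF libraries (log2 −0.28, SE 0.09, adjusted p = 0.122). Rpl4, Rpl32 and Rps9 are the members with the smallest p and were chosen after their values were seen. In 9 of 72 members all GF libraries lay below all SPF libraries, against 6.17% of all genes. The summed CPM of 8 microglial markers was also lower in GF, 71929 to 73557 against 74780 to 76133, and 1 GF library had 170 CPM of neutrophil markers; their part in these differences was not tested.

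In cortex, the same question could be asked with acetate as a further group. The GF against SPF comparison called 0 of 83 members with edgeR (1.71% of all 15113 genes were called), none had an unadjusted p under 0.05, DESeq2 called 0, and the median log2 difference was 0.04. GFA against GF also called 0 (0.973% of genes), with 3 members at an unadjusted p under 0.05 and 0 by DESeq2. Of 83 members 80 lay below 0 and the median was −0.20. The spread (SD) of the libraries' member means within these groups was 0.216 (log2). Members varied together, so the 80 are not separate observations. The microglial markers summed to 51158 to 55001 CPM in GFA and 43200 to 48301 CPM in GF cortex, without overlap, while the mitochondrially encoded share overlapped (0.1472% to 0.2172% and 0.1918% to 0.2958%); their part in this shift was not tested. Rps16, a small-subunit protein, had the smallest p of them, with 22.9, 23.3, 16.4 and 16.5 CPM in GF and 11.6, 13.3, 15.1 and 14.5 CPM in GFA libraries. Its groups did not overlap, but its log2 difference of −0.47 (SE 0.20) had an adjusted p of 0.381. In 9 members all GFA libraries lay below all GF libraries, against 6.29% of all genes. GFA against SPF called 0 (0.364% of genes), with 1 member at an unadjusted p under 0.05, 0 by DESeq2 and a median of −0.17. Border macrophage markers were at 6.58 to 12.9 CPM in GFA and 21.1 to 34.9 CPM in SPF cortex. They were also lower in GF cortex (8.96 to 11.6 CPM), where the members' median against SPF was 0.04. The part of these markers was not tested. The 2 acetate comparisons share the GFA libraries, and animal GFA_WT_518 had the lowest share of counts on members among them (0.3045%, the other 3 lying between 0.3907% and 0.3956%).

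Within the wild-type hippocampus no microbiota comparison called a member by edgeR or by DESeq2. Of all 17063 genes, 0.727% were called between GF and SPF, 0.492% between GFA and GF and 0.123% between GFA and SPF. The numbers of members with an unadjusted p under 0.05 were 1, 0 and 2, and the medians were −0.01, −0.07 and −0.08 (log2), so the members lay close to all genes. Microglial markers were lower in wild-type GF libraries (42723 to 43843 CPM) than in SPF (49060 to 53431) and GFA libraries (51577 to 52181), without overlap. Their part was not tested. In the 5xFAD hippocampus the members were again not called, with 0 of 83 by either tool in GF against SPF (1.82% of all genes called). There 1 member had an unadjusted p under 0.05 and the median was −0.04. Border macrophage markers were at 3.86 to 8.02 CPM in these GF and 12.1 to 24.4 CPM in these SPF libraries, and their part was not tested. GFA against GF called 0 (0.082% of genes), with 7 members at an unadjusted p under 0.05, a median of 0.24 and 81 of 83 members above 0. Neither the microglial markers (43057 to 44980 CPM in GFA, 39993 to 40598 CPM in GF) nor the border macrophage markers (9.92 to 23.5 and 3.86 to 8.02 CPM) overlapped between these groups, and their part was not tested. GFA against SPF called 0 (0.0527% of genes), with 2 members at an unadjusted p under 0.05, a median of 0.21 and 81 of 83 above 0. These 2 comparisons share the 5xFAD GFA libraries. In 7 members all 5xFAD GFA libraries lay above all 5xFAD GF libraries, against 4.09% of all genes.

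**Figure D3:**
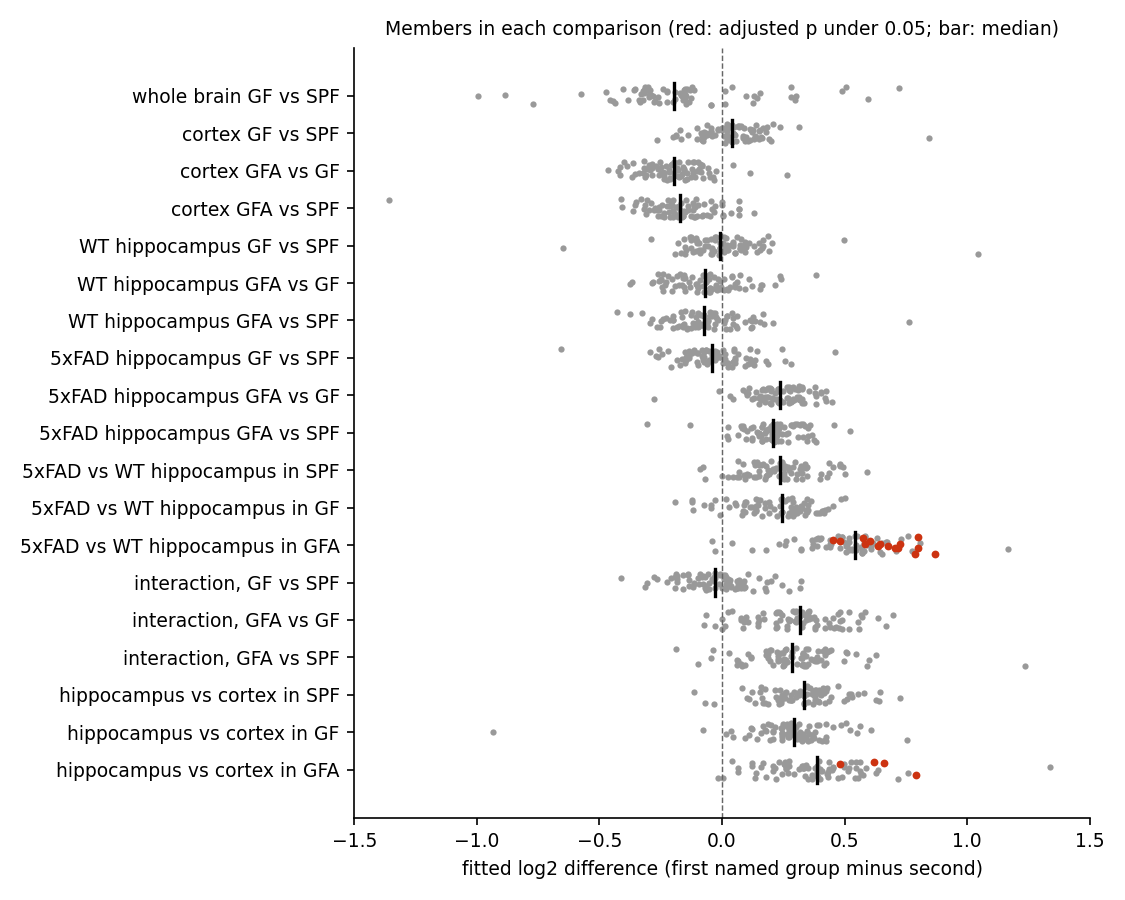
Fitted log2 difference of every tested ribosomal protein gene (points) in the 19 comparisons, on an axis limited to ±1.5, outside which 7 points lie; the bar is the median and red points have an adjusted p under 0.05. Red points appear only for 5xFAD against wild type in GFA mice (15) and for hippocampus against cortex in GFA mice (4).

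The amyloid genotype was compared within each microbiota condition. Under acetate, 15 of 83 members were higher in 5xFAD than in wild-type hippocampal microglia and none was lower (edgeR quasi-likelihood test), where 1.83% of all 17063 genes were called higher. They were 9 large-subunit genes (Rpl3, Rpl4, Rpl10a, Rpl13, Rpl14, Rpl19, Rpl23, Rpl32 and Rplp0) and 6 small-subunit genes (Rpsa, Rps3, Rps4x, Rps14, Rps20 and Rps23). Their log2 differences ran from 0.45 to 0.87. Over all tested members the median was 0.54 against 0.00 for all genes, 81 of 83 lay above 0 and 66 had an unadjusted p under 0.05. In 35 members every 5xFAD library lay above every wild-type library, against 5.2% of all genes.

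Rpl3, a core protein of the peptidyl transferase region, had 129, 158, 143 and 156 CPM in the wild-type GFA libraries of animals GFA_WT_518, GFA_WT_523, GFA_WT_524 and GFA_WT_525, and 219, 231, 198 and 228 CPM in the 5xFAD GFA libraries of animals GFA_FAD_519, GFA_FAD_520, GFA_FAD_521 and GFA_FAD_522. All 5xFAD libraries lay above all wild-type libraries, by 1.52-fold (log2 0.61, SE 0.11, adjusted p = 0.00198). Rpl19, which forms a bridge between the subunits, had 50.8, 88.0, 53.7 and 69.8 CPM in wild type and 124, 127, 96.1 and 124 CPM in 5xFAD libraries. The groups did not overlap and differed by 1.82-fold (log2 0.87, SE 0.17, adjusted p = 0.00615), the largest difference among the 15. Rpl10a, the protein of the mobile L1 stalk, had 56.6, 77.4, 68.2 and 76.6 CPM against 108, 105, 95.9 and 102 CPM. Here too every 5xFAD library was higher (log2 0.58, SE 0.13, adjusted p = 0.0107).

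Further large-subunit members behaved in the same manner. Rpl13 had 102, 145, 97.5 and 123 CPM in wild type and 189, 202, 157 and 166 CPM in 5xFAD GFA libraries, without overlap (1.55-fold, log2 0.63, SE 0.15, adjusted p = 0.0172). Rpl14 had 65.5, 82.5, 67.2 and 74.1 CPM in wild type, and its 5xFAD libraries ranged from 102 to 144 CPM (1.63-fold, log2 0.71, SE 0.17, adjusted p = 0.0245). Rpl23 differed by 1.65-fold (log2 0.73, SE 0.17, adjusted p = 0.0250). Rpl4, one of the tunnel proteins, was among the smallest of the called differences, with 209, 222, 180 and 198 CPM against 241, 287, 266 and 297 CPM. Its groups were separate, at 1.37-fold (log2 0.45, SE 0.12, adjusted p = 0.0402). Rplp0, the base of the P stalk that recruits translation factors, had 159, 163, 108 and 137 CPM in wild type and 185, 263, 184 and 199 CPM in 5xFAD, a difference of 1.49-fold (log2 0.58, SE 0.15, adjusted p = 0.0462) that lost its call under 9 of 17 alternative settings.

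Of the small-subunit members, Rpsa, also known as the laminin receptor precursor, had 41.6, 53.2, 33.2 and 47.9 CPM in wild type and 71.3, 86.3, 60.6 and 80.8 CPM in 5xFAD GFA libraries. The lowest 5xFAD library lay above the highest wild-type library, and the difference was 1.73-fold (log2 0.79, SE 0.18, adjusted p = 0.0165). Rps23, a protein of the decoding centre, had 44.8, 65.0, 39.7 and 69.3 CPM against 89.0, 118, 82.4 and 85.2 CPM, also without overlap (1.74-fold, log2 0.80, SE 0.19, adjusted p = 0.0245). Rps3 had 158, 166, 139 and 184 CPM against 214, 254, 193 and 228 CPM, and its groups were separate by a small margin (1.40-fold, log2 0.48, SE 0.12, adjusted p = 0.0329). Rpl4 and Rps3 were picked from the called members after their values were seen. In the wild-type group, animals GFA_WT_518 and GFA_WT_524 were the lower pair for Rpl19, Rpl13 and Rps23.

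**Figure D4:**
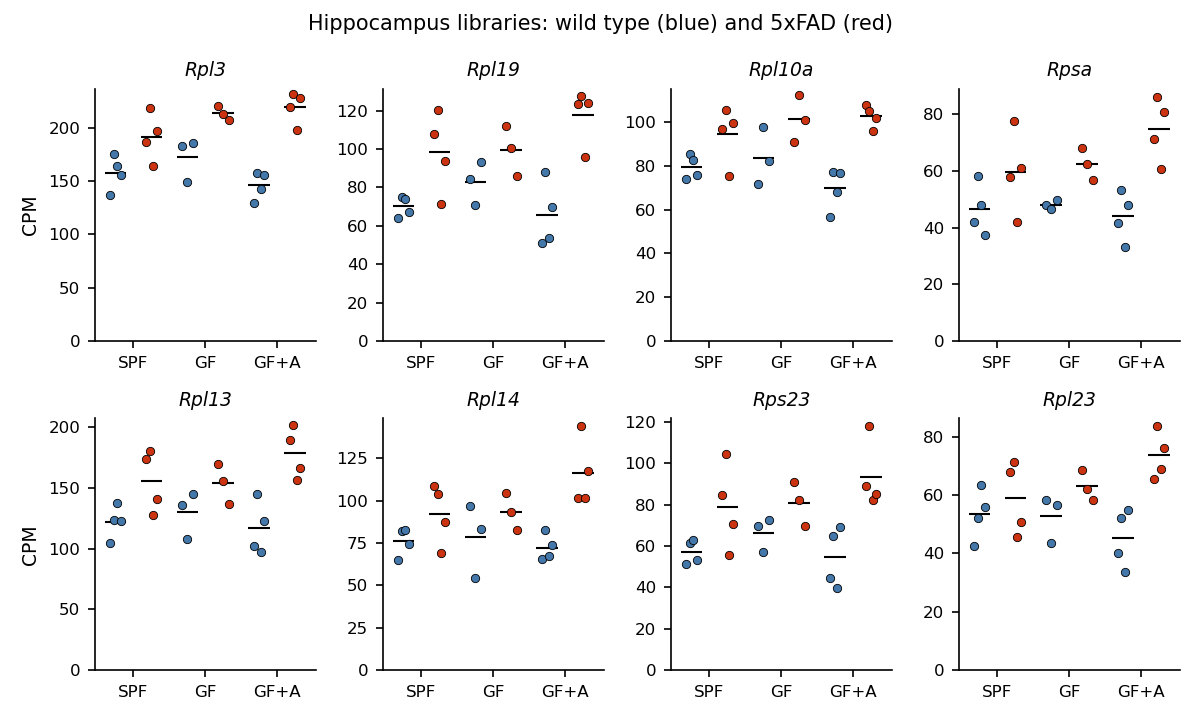
CPM of 8 called ribosomal protein genes in hippocampal microglia of wild-type (blue) and 5xFAD (red) mice under SPF, GF and GF plus acetate (GF+A); points are libraries and bars are group means. In the GF+A columns every red point lies above every blue point, while in the SPF columns the colours overlap.

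The call on these members rested on few libraries. Leaving out GFA_WT_524 or GFA_FAD_520 left 3 called members, GFA_WT_518 or GFA_FAD_522 left 5, GFA_FAD_519 left 9 and GFA_WT_525 left 22, while Rpl3, Rpl19 and Rpl10a passed in each of 17 alternatives. The share of all genes called after leaving out a library is not set beside these counts. DESeq2 called 32 members (4.52% of all genes) and a fit of only these 2 groups called 8 (2.32%). Of the other members described, Rps3 lost its call in 8, Rpl4 in 7, Rpl23 in 5, Rpl13, Rpl14 and Rps23 in 4 and Rpsa in 3 of the 17. The median of the members stayed between 0.44 and 0.64 in these settings. The 8 microglial markers summed to 51577 to 52181 CPM in the wild-type and to 43057 to 44980 CPM in the 5xFAD GFA libraries, which did not overlap, and 16607 to 19483 against 19480 to 19761 genes were detected; the part of these in the result was not tested. The 5 border macrophage markers summed to 0.863 to 10.2 CPM in wild-type (Lyve1 at 0) and 9.92 to 23.5 CPM in 5xFAD GFA libraries, and their part was not tested either. The neutrophil markers reached at most 0.165 and 0.251 CPM in the same 2 groups. The share of mitochondrially encoded counts overlapped (0.2239% to 0.3736% in wild type, 0.2956% to 0.3932% in 5xFAD), as did the summed ribosomal protein pseudogenes (41.8 to 59.8 and 52.7 to 63.7 CPM).

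Without acetate the members' median genotype difference was smaller and no member was called. The interaction terms given below called no member either, so a change of this difference with acetate was not established. In SPF mice, edgeR called 0 of 83 (0.568% of all genes called), DESeq2 called 0, 10 members had an unadjusted p under 0.05, and 80 of 83 lay above 0 with a median of 0.24. This median fell to 0.10 without SPF_FAD_2142, a shallow library (5.74 M counts) with the highest member share of its group (0.7656%). It rose to 0.35 without SPF_FAD_2152, so it depended on single libraries. Neutrophil markers summed to 260 CPM in SPF_FAD_2153 and to 238 CPM in GF_WT_532, and leaving out either of these libraries gave 0 called members in its own genotype comparison. In GF mice, edgeR and DESeq2 called 0 of 83 (0.756% of all genes), 4 members had an unadjusted p under 0.05, 73 lay above 0 and the median was again 0.24. The microglial markers did not overlap here either, at 42723 to 43843 CPM in wild type and 39993 to 40598 CPM in 5xFAD, and their part was not tested. In 11 members all 5xFAD GF libraries lay above all wild-type GF libraries, against 8.31% of all genes. Rpl3 had 137, 175, 164 and 156 CPM in wild-type SPF and 186, 219, 164 and 197 CPM in 5xFAD SPF libraries, which overlapped slightly (log2 0.27, SE 0.11, adjusted p = 0.339). In GF mice it had 183, 149 and 186 CPM against 220, 213 and 207 CPM, without overlap (log2 0.34, SE 0.12, adjusted p = 0.273). The 15 members called under acetate all lay above 0 in SPF (0.13 to 0.48, median 0.27) and in GF mice (0.06 to 0.45, median 0.30), comparisons that use other libraries. So did 80 and 73 of all 83 members, with a median of 0.24 in each, and members varied together. This is therefore not particular to the 15.

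Whether the genotype difference itself changed with the microbiota was tested by interaction terms. None of 83 members and 0% of 17063 genes passed for GF against SPF, GFA against GF or GFA against SPF, and DESeq2 called 0 members in each. At an unadjusted p under 0.05 there were 1, 5 and 4 members. The medians were −0.03, 0.32 and 0.29 (log2), and 78 and 79 of 83 members lay above 0 in the 2 acetate terms, which share the GFA libraries. The median SE of a member was 0.27 to 0.29 in these terms, so a difference in genotype effect of the size of the medians was not detectable for single genes.

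The region of origin was compared within animals, with the animal as a block in the fit. The SPF pairs were matched only by their shared labels. The summed share of counts on members was higher in hippocampus than in cortex in 11 of 11 animals, by 1.02-fold to 1.56-fold (median 1.34-fold). Members were also mostly higher one by one, with 14 of 83 higher in all 11 animals (1.82% of all 16793 genes were) and 45 in at least 10 (6.47% of all genes). The summed mitochondrial ribosomal proteins, the mitochondrially encoded share and the ribosomal protein pseudogenes were each higher in hippocampus in 10 of 11 animals, and their part in this difference was not tested.

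**Figure D5:**
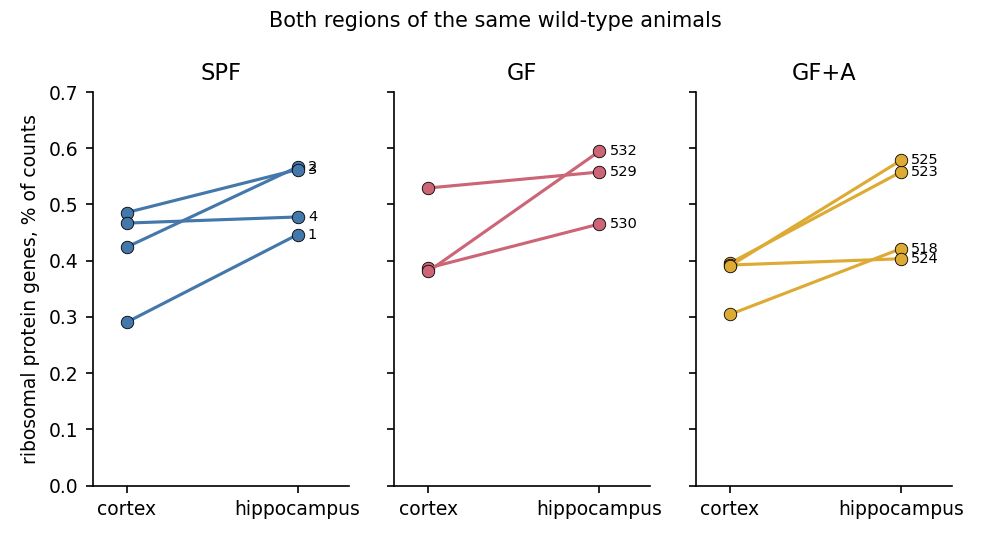
Share of counts on ribosomal protein genes, in percent, in cortex and hippocampus of the same wild-type animal. Each line is 1 animal, named by its number, the SPF pairs being matched only by their shared labels. All 11 lines rise from cortex to hippocampus, those of SPF animal 4, GF_WT_529 and GFA_WT_524 only slightly.

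In GFA mice 4 of 83 members were called higher in hippocampus and none lower, where 0.667% of all 16793 genes were called higher; the median was 0.39 against −0.06 for all genes. Rpl10 had 75.1, 86.9, 87.4 and 84.4 CPM in the cortex and 120, 141, 100.4 and 122 CPM in the hippocampus of GFA_WT_518, GFA_WT_523, GFA_WT_524 and GFA_WT_525. Every hippocampal library was higher, by 1.40-fold (log2 0.48, SE 0.11, adjusted p = 0.0293). Rps27a, which is made as a fusion with ubiquitin, had 35.8, 40.6, 48.4 and 47.3 CPM against 78.8, 85.7, 54.4 and 90.7 CPM (1.73-fold, log2 0.79, SE 0.18, adjusted p = 0.0310). The smallest increase of both genes was that of GFA_WT_524. Rpl26 differed by 1.58-fold (log2 0.66, SE 0.15, adjusted p = 0.0315). Leaving out GFA_WT_518, GFA_WT_523 or GFA_WT_525 left 0 called members and leaving out GFA_WT_524 left 13, and without the animal block 1 was called. These counts come without the share of all genes called in the same setting. DESeq2 called 25 (8.47% of all genes).

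In SPF mice 0 of 83 members were called between the regions by edgeR (0.697% of all genes called), 8 by DESeq2 (5.44% of all genes), and 34 had an unadjusted p under 0.05, with 80 above 0 and a median of 0.34. In GF mice both tools called 0 (0.0357% of all genes), 14 members had an unadjusted p under 0.05, 81 lay above 0 and the median was 0.29. The regions did not overlap, hippocampus being higher, in 6 members in SPF (3.03% of all genes), 13 in GF (6.48%) and 20 in GFA mice (5.91%). The 3 region comparisons rest on different animals.

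Genes that share the translational control or the function of the members were described by lists. Of 25 translation factors and other TOP mRNAs, 2 were higher in 5xFAD than in wild-type GFA hippocampus and none lower. There 1.83% of all genes were called higher, and the list's median was 0.29. The 2 were Eef1a1 (log2 0.70, adjusted p = 0.00126) and Eef2 (0.69, adjusted p = 0.00135), the elongation factors that deliver tRNA and translocate the ribosome. Eef1a1 was also called in GF mice (0.61, adjusted p = 0.0302) and was lower in whole-brain GF than SPF microglia (−0.42, adjusted p = 0.0256). Of the 6 ribosomal protein genes outside the naming rule, Rps3a1, a small-subunit protein, was higher under acetate (0.61, adjusted p = 0.0349). None of 78 mitochondrial ribosomal protein genes was called there (median −0.02), nor any of 49 ribosomal protein pseudogenes (median 0.31). Among 44 ribosome biogenesis genes Bysl, a small-subunit assembly factor, was the one called, and it was lower (−0.91, adjusted p = 0.0312). Of 33 genes of mTORC1 and TOP translation control, Sesn1, an inhibitor of mTORC1, was lower in 5xFAD under acetate (−0.50, adjusted p = 0.0371) and in SPF mice (−0.59, adjusted p = 0.0324). In SPF mice 0.568% of all genes were called in either direction. The share of all genes called lower under acetate is not set beside Bysl and Sesn1. Eef1a1 and Eef2 passed in each of 17 alternatives under acetate, whereas Rps3a1 lost its call in 9, Sesn1 in 8 and Bysl in 6 of these. Sesn1 in SPF mice lost it in 9 of 17, and Eef1a1 in 6 of 15 in GF mice and in 7 of 14 in whole brain.

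In whole brain, Ddit4, also an inhibitor of mTORC1, was higher in GF than SPF microglia (log2 4.07, adjusted p = 1.83e-06), where no member was called. There 1.99% of all 11332 genes were called in either direction, and the list's number of calls is not given. Between GF and SPF it was also called higher in 5xFAD hippocampus (4.39, adjusted p = 0.0397, lost in 10 of 16 alternatives), and its values in wild-type hippocampus and cortex were 3.41 (adjusted p = 0.125) and 3.24 (adjusted p = 0.280). For GF against SPF, the list of mTORC1 genes had 1 gene higher and 1 lower in cortex (1.71% of all genes called). It had 1 higher in wild-type hippocampus (0.727%) and 3 higher in 5xFAD hippocampus (1.82%). For GFA against GF it had 1 lower in cortex (0.973%) and 1 in wild-type hippocampus (0.492%). These shares count calls in both directions, and the list was not tested against them. Between hippocampus and cortex in GFA mice, Tpt1, a TOP mRNA, was higher (0.50, adjusted p = 0.0420), whereas Eef2 was lower (−0.48, adjusted p = 0.0262), calls lost in 6 and 5 of 12 alternatives. The 78 mitochondrial ribosomal protein genes had a median of 0.19 in that comparison and 0 calls.

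The members varied together between libraries of one group. After group means were removed from the 34 cortex and hippocampus libraries, the median correlation between pairs of the 83 members was 0.757, against 0.004 over pairs of all 17666 genes. These values describe genes measured in the same libraries, whose depth and RNA quality they share, and carry no test. Rpl31, Rps23 and Rpl32 followed the mean of the other members most closely, at 0.97, 0.968 and 0.965. Rpl4, Rpl10a and Rplp0 followed it less, at 0.525, 0.536 and 0.676, as did Rpl24 and Rpl6, at 0.405 and 0.62. Of these genes Rps23, Rpl32, Rpl4, Rpl10a and Rplp0 were called under acetate, so called members stood at both ends. Rps4l, annotated as a transcribed pseudogene, did not follow the mean at −0.054. The median correlation with the member mean was 0.703 for the ribosomal proteins outside the rule, 0.413 for TOP mRNAs, 0.316 for mitochondrial ribosomal proteins, 0.062 for mTORC1 genes and 0 for ribosome biogenesis genes.

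Pyrimidine runs were present among called and other members. Of the 15 members higher in 5xFAD under acetate, 11 had a window, and 4 of these (36.4%) held a run of at least 8 bases, against 28 of 51 (54.9%) among the tested members not called. In the windows printed above, the runs of 14 belonged to Rpl4 and Rpl14 (log2 0.45 and 0.71), the run of 11 to Rpl19 (0.87) and the run of 10 to Rpl13 (0.63). The runs of 6 and 5 belonged to Rps23 and Rpsa (0.80 and 0.79). These windows include all 4 called members with a run of at least 8. The called members Rpl23, Rps4x, Rps3, Rpl10a and Rplp0, not printed, had longest runs of 3, 4, 6, 7 and 7. A relation of run length to the differences was not tested.

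Members that are paralogues of another member were expressed at separate levels. In cortex and hippocampus, Rps27l, a p53-responsive paralogue of Rps27, averaged 51.5 CPM (41.3 CPM in whole brain), and Rpl36al averaged 20.1 CPM beside 21.6 CPM for Rpl36a. In whole brain Rpl36al kept 22.1 CPM while Rpl36a had 0.501 CPM. The paralogues described from germ line or muscle were near 0 in cortex and hippocampus, with 0.0117 CPM for Rpl10l, 0.0759 CPM for Rpl3l and 0.628 CPM for Rpl39l. Rpl39l was listed at 0 in all 3 5xFAD GF libraries and at 0.960, 0.301, 0.876 and 4.12 CPM in the 5xFAD GFA libraries, of which 1 library held most of the signal (edgeR adjusted p = 0.284). It was at 0.722, 0.763, 0.760 and 1.45 CPM in GF cortex and at 0.087, 0.651, 0 and 0 CPM in GFA cortex (edgeR adjusted p = 0.475). The 4 members of the cortex and hippocampus table that were too low to test, Rpl10l, Rpl32l, Rpl3l and Rpl6l, had means of at most 0.0791 CPM. In whole brain 13 were too low (among them Rpl10l, Rpl12, Rpl23a, Rpl24, Rpl26, Rpl28, Rpl36, Rpl3l, Rpl9, Rps12, Rps27rt and Rps28), with means of at most 0.353 CPM, and Rpl3l and Rps27rt had no count. Because reads may be divided among near-identical copies, the levels of members with many shared stretches are uncertain.

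Several members with roles beyond or at the edge of the ribosome were described by their group means. Rps6, the small-subunit substrate of S6 kinase, averaged 59.0 ± 10.1 CPM in wild-type and 82.0 ± 9.4 CPM in 5xFAD GFA hippocampus (SD, n = 4 each), and 43.2 ± 0.6 CPM in GFA cortex (n = 4). Rpl5 and Rpl11, which carry 5S RNA into the large subunit and bind Mdm2, averaged 48.9 ± 6.9 and 57.2 ± 8.0 CPM in wild-type against 62.0 ± 4.6 and 76.3 ± 8.5 CPM in 5xFAD GFA hippocampus. Fau, a ubiquitin-like fusion that yields a small-subunit protein, averaged 51.6 ± 14.2 and 77.8 ± 12.2 CPM in the same groups. The P stalk proteins Rplp1 and Rplp2 averaged 69.4 ± 17.7 and 50.6 ± 14.3 CPM against 98.8 ± 19.4 and 74.5 ± 10.4 CPM. None of these 6 passed the adjusted threshold in the genotype comparisons.

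Whole-brain libraries held 19.33 M to 25.37 M counts (M, 1000000). Cortical libraries held between 15.79 M and 23.86 M, and hippocampal ones between 5.74 M and 22.53 M, where SPF_FAD_2142 and 1 wild-type SPF library (5.86 M) were the shallow ones. All 8 microglial markers were detected in every group. Neutrophil markers summed to under 1 CPM in most groups, but reached the values given above in 1 whole-brain GF, 1 5xFAD SPF hippocampus and 1 wild-type GF hippocampus library. Their highest sum in GFA cortex was 16.4 CPM. T and NK cell markers reached at most 0.260 CPM and border macrophage markers at most 34.9 CPM. The highest sums were 33.5 CPM for monocyte, 70.2 CPM for erythroid, 12.7 CPM for neuron, 84.1 CPM for oligodendrocyte, 10.4 CPM for astrocyte and 44.8 CPM for endothelial markers. The 3 B cell markers summed to as much as 766 CPM, nearly all of it from Ighm (up to 725 CPM), while Cd79a reached at most 1.02 CPM in cortex and hippocampus. The 61 pairs of replicates differed by more than sampling noise (chi-square per degree of freedom from 8.13 to 43.44), so no library was counted as a copy of another.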

How the data were processed

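Bulk RNA-seq libraries of sorted mouse microglia were analysed from the gene counts that the authors deposited. The authors used STAR 2.5.2b and featureCounts 1.5.1 (per the submitters' processing notes); the notes name the human build GRCh38 although the gene symbols are those of the mouse, so no coordinates of the files were used, and strand setting and annotation are not given in the sources used here. Windows were taken from RefSeq (GRCm38.p6) and transcripts from GENCODE M21, and all 87 symbols matched a gene name. The members and lists were chosen with earlier results of these data known. Genes were filtered with filterByExpr (minimum count 10), scaled by TMM and tested with edgeR 4.0.16 (robust quasi-likelihood, R 4.3.3), separately for whole brain, cortex, hippocampus (all 22 libraries) and regions (animal as block), with Benjamini-Hochberg adjustment over all tested genes and a threshold of 0.05. DESeq2 1.42.0, other scalings, filters and subsets and leaving out each library were alternatives. CPM are counts scaled to a library total of 1000000. The code was tested on simulated counts. Where the labels do not name the animal, replicates may be technical, and p-values then measure only the spread between these samples. Genes named in each comparison were the called members with the smallest p (up to 8 a direction), the 3 highest and 3 lowest, a set of members chosen for their role, and the members highest in each table; those picked otherwise are marked. Cortex and hippocampus libraries of 1 number were taken as the same animal, which for SPF rests on the labels SPF1 to SPF4 alone. The deviations of these pairs correlated at 0.028 to 0.114, with 4 of 11 over 0.1. Lists covered TOP mRNAs, ribosome biogenesis, mTORC1 control, mitochondrial ribosomal proteins, pseudogenes and markers of microglia and other cells. Some members counted in the totals are not reported here by name.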

Additional observations from a re-analysis of the deposited data

Results flagged for a closer look

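Among 104 values of a group of 4 or 5 libraries, 5 libraries stood far from the rest of their group by Dixon's test, where chance gives 1 in 20, or 5.2 of them. In whole-brain GF microglia Rpl3 was 11.5 CPM in replicate 5, and the next highest library had 8.56 CPM. In cortex, Rpl19 was 42.1 CPM in SPF replicate 1 against 66.1 CPM in the next lowest library, and the members' share of counts was 0.3045% in GFA_WT_518 against 0.3907% in the next. In hippocampus, Rps3 was 199 CPM in wild-type SPF replicate 2 against 155 CPM in the next highest library. Rpl19 was 96.1 CPM in GFA_FAD_521 against 124 CPM in the next lowest, and this library lay above all wild-type GFA libraries all the same.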

How the results depend on the processing

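Of 309 alternatives for the number of members called, 283 stayed within 1.5 times the reported count and 26 moved; of 309 for the members' median, 308 moved by less than the spread between libraries. DESeq2 called 3 members in whole brain, 32 for 5xFAD against wild type in GFA mice, and 8 and 25 between regions in SPF and GFA mice. Fitting only the groups compared called 8 for the GFA genotype, and 3 and 0 between regions in SPF and GFA mice. Without a filter 4, 1 and 16 members were called between regions in SPF, GF and GFA mice, and with a mean of at least 5 CPM 3 in SPF and 15 in GFA mice. Without SPF_FAD_2152, GF_WT_530 and GFA_WT_518, 3 were called for the genotype in SPF mice, and the median of the GF against SPF interaction became −0.24; SPF_FAD_2152 had the lowest member share of its group (0.4651%), so leaving it out raises the 5xFAD mean by construction. Without animals GFA_WT_518 and GF_WT_530, 1 and 0 were called between regions in SPF and GFA mice. Leaving out each library gave 0 to 1 in whole brain (1 without GF replicate 3), 3 to 22 for the GFA genotype and 0 to 13 between regions in GFA mice. Without the replicate block 1 member was called between regions in GFA mice; with a block on the replicate number in whole brain, where the numbers mark different mice (deviations correlated at −0.037 to −0.003 in 3 pairs), 0 were called. Over the alternatives for 37 single-gene differences, 428 kept their side of the threshold, 133 lost the call, 9 gained it and 0 changed direction. The cause of these changes was not tested. Apart from DESeq2 and the fit of only the GFA genotype groups, the counts come without the share of all genes called in that setting. They therefore do not separate a change in the members from a change in calls over all genes. The median SE of 0.17 to 0.22 (log2) per member and 3 to 5 libraries a group limit what a test of a single gene can show.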
